A study of Homo sapiens with 4 samples.

Results

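The HOX cluster genes are the homeobox genes that lie in 4 clusters, HOXA, HOXB, HOXC and HOXD, on 4 chromosomes. All protein-coding genes named HOXA, HOXB, HOXC or HOXD with a number were taken from the tables, which gave 39 of the 43622 genes listed. HOXA held 11 of them, HOXB 10, HOXC 9 and HOXD 9. HOXA lies on chromosome 7. On build hg38 as the files give positions, the HOXB genes span chr17:48528526-48729178, the HOXC genes chr12:53938765-54056030 and the HOXD genes chr2:176092891-176190907.

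HOX proteins are transcription factors that bind DNA through a homeodomain, often together with PBX and MEIS partner proteins, and set position along the body axis in the embryo. Low numbers mark genes used towards the head (anterior) and high numbers genes used towards the tail (posterior), and the order of the genes on the chromosome follows that order. Chromatin marks of the Polycomb and Trithorax groups keep HOX genes off or on, retinoic acid is a known inducer of anterior HOX genes, and adult lung tissue keeps a pattern of HOX expression. Below, genes numbered 1 to 3 are called anterior (8 genes), 4 to 8 central (15 genes) and 9 to 13 posterior (16 genes).

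The series compared lung cancer cells grown attached to the dish with the same cells grown as floating spheroids, which its submitters regard as cancer stem cell culture, with the making of triacylglycerol (TAG) in view. Both lines, A549 and H1993, are established lung adenocarcinoma lines, labelled as lung epithelial cells. The 4 libraries were A549 adherent, A549 spheroid, H1993 adherent and H1993 spheroid, 1 library each, all from total RNA made into stranded mRNA libraries. No label assigns an inhibitor or an shRNA to any of the 4, although the design text of the series mentions both. With 1 library a group no spread between replicates was measured, so every difference compares 2 libraries, with an interval for counting error only. PCR copies cannot be told from separate molecules here.

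Total exon reads lay between 15331121 and 17681746 a library, so the 3 reads used as a floor for a gene with no read equal 0.173 to 0.196 CPM (reads scaled by library size and its TMM factor). Over all genes the library labelled H1993 adherent stood nearer A549 adherent cells (median absolute log2 difference 0.30) than H1993 spheroids (0.69), so its label is not relied on here and it is called the library labelled H1993 adherent throughout. NKX2-1, a lung lineage transcription factor, went with the label: 0 reads in both A549 libraries, 12 where the label says H1993 adherent and 13 in H1993 spheroids. EPCAM, an epithelial adhesion protein, went against it, with 413 and 308 reads in A549 adherent and spheroid cells, 266 where the label says H1993 adherent and 4716 in H1993 spheroids. The surfactant genes SFTPB and SFTPC were under 0.2 CPM in all 4 libraries. Summed markers of lung epithelium lay at 10977, 5854, 4190 and 11445 CPM, in the order A549 adherent, A549 spheroid, labelled H1993 adherent, H1993 spheroid. Those of fibroblasts lay at 13.1, 39.1, 46.9 and 45.4 CPM, of blood cells at 21.1, 95.4, 44.3 and 74.2 CPM, and of endothelium at 0.881, 8.0, 2.70 and 4.82 CPM. Of 8 epithelial markers that passed a filter on low counts, 1 was higher and 3 lower where the label says H1993 adherent than in A549 adherent cells. Of 4 fibroblast markers, 3 were higher and 0 lower. These differences were at least 2-fold with intervals that excluded no change, as for 6.93% (higher) and 5.49% (lower) of all filtered genes. COL1A2, PDGFRB, CD3E, HBB, VWF, KDR and TEK were under 0.2 CPM in all 4, and PTPRC had 45 reads in H1993 spheroids and 0 elsewhere. The part of these markers in the HOX results was not tested.

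Many HOX genes lie within the span of another gene. At least 50% of the exonic bases of 17 members lay inside such a span on the same strand, introns included, and a median of 3.91% (range 0 to 66.0%) of their exon reads were deposited as unique. Exons themselves overlapped less: in GENCODE release 29 a median of 9.71% of a member's exonic bases were shared with an exon of another gene on either strand, and 14 of the 39, HOXA5, HOXB8, HOXB9 and HOXC8 among them, shared none. The rule that shares reads between such genes is not given in the sources used here, so the totals of HOXA4, HOXA5, HOXA6, HOXA9, HOXA10, HOXB4, HOXB5, HOXB6, HOXB8, HOXB9, HOXC5, HOXC6, HOXC8, HOXC9, HOXC10, HOXD3 and HOXD4 are less certain than those of the other 22. A group of 10 members was overlapped on the opposite strand alone, and 100% of their exon reads were unique. Values below are in this library order: A549 adherent, A549 spheroid, the library labelled H1993 adherent, H1993 spheroid.

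In H1993 spheroids HOXA2 and HOXA7 were lower, and HOXA9 and HOXA13 higher, than in the library labelled H1993 adherent. The promoters of these 4 genes are shown as examples from HOXA. They are RefSeq sequences of GRCh38.p14, 250 bases before to 50 bases after a transcript start, on the minus strand. Capitals mark each match, on either strand, to CCAAT (the letters bound by NF-Y, read as ATTGG on the other strand) or TGATTGAT (a PBX-HOX site, ATCAATCA on the other strand), and no matches overlapped in these 4.
HOXA2, chr7:27102634-27102933: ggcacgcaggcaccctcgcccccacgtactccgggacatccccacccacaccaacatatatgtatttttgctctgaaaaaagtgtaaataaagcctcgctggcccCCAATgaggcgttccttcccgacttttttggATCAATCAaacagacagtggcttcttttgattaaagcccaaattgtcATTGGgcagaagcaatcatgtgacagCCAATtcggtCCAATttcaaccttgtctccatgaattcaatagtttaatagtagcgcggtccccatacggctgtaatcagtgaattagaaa
HOXA7, chr7:27156626-27156925: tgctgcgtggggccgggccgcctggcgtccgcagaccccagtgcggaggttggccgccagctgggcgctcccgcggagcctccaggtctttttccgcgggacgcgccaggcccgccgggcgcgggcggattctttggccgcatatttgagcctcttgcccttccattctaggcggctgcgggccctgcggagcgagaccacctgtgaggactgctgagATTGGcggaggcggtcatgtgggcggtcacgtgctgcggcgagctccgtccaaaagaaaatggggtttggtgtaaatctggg
HOXA9, chr7:27165488-27165787: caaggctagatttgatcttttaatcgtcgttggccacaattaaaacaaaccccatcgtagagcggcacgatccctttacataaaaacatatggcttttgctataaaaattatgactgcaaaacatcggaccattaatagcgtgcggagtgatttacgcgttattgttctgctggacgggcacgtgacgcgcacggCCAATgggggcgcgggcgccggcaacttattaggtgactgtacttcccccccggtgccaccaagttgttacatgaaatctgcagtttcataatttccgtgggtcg
HOXA13, chr7:27200042-27200341: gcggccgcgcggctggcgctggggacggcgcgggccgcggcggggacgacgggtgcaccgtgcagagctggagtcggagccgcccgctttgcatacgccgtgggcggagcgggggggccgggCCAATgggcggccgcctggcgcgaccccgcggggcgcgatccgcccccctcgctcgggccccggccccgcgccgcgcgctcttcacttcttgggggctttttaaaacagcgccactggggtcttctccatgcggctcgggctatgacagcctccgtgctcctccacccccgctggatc
The HOXA2 window held 4 CCAAT matches and 1 TGATTGAT match, and the others 1 CCAAT match each. CG dinucleotides numbered 11, 31, 22 and 44 in the 4 windows, beside a median of 14 over all promoters. The window of HOXA11, which was also higher in H1993 spheroids and is not shown, held 0 matches and 13 CG dinucleotides. RefSeq promoters were matched for 20 of the 39 members, which have 27 windows because HOXA3 has 7 and HOXA10 has 2. HOXC4 and HOXC5 share the same window. CCAAT was in 66.7% of the 27 HOX windows, the shared one counted for both genes, and in 34.6% of all 35097 promoters. By level, it was in 55% of the 20 windows of members that reached 1 CPM in a library. Among members under 10 reads in every library it was in 100% of 6 windows. These shares count windows, not genes. HOXA3 supplied 7 of the 20, and of its windows only chr7:27152534-27152833 held CCAAT. The HOXC5 window among the 6 is the one shared with HOXC4, which is among the 20. The 55% and 100% thus do not compare genes by level. TGATTGAT was in 7.41% (HOXA2 and HOXD11) against 0.484%, TTTATGG, a HOX-CDX site, in 3.70% (HOXD8) against 2.54%, and AGGTCA, a nuclear receptor half-site, in 0 of the 27 against 13.8%. These are letter matches in short windows, with neighbouring genes not independent of each other, and say nothing of binding.

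HOX transcripts were present but low. At least 1 CPM was reached by 28, 23, 25 and 23 of the 39 genes. TPM values, which are scaled by exon length so that genes can be compared within a library, had a HOX median of 3.73, 4.55, 4.04 and 2.50. The median of the 15273 genes kept by a filter on low counts was 15.0, 13.6, 14.8 and 16.0 TPM. The filter kept 29 HOX genes: 11 of 11 in HOXA, 9 of 10 in HOXB, 7 of 9 in HOXC and 2 of 9 in HOXD. HOXB7 had the highest HOX level in all 4 libraries, at 54.0, 54.7, 41.5 and 25.5 TPM, above 81.9% of the kept genes in A549 adherent cells and 61.6% in H1993 spheroids. HOXC13, a posterior gene best known for hair, came next in A549 adherent cells (19.4 TPM) and H1993 spheroids (12.8 TPM), HOXB9 in A549 spheroids (22.4 TPM) and HOXB8 in the library labelled H1993 adherent (36.3 TPM). Intronic reads made up 31.8%, 26.3%, 31.8% and 25.5% of HOX gene reads, against 10.1%, 8.43%, 10.7% and 11.6% over all genes. They were unevenly spread: HOXB3 had 594, 499, 700 and 178 and HOXA3 220, 135, 325 and 108, and other HOX genes lie inside both spans. HOXA5, HOXA7 and HOXB4 had 0 in each library.

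**Figure D1:**
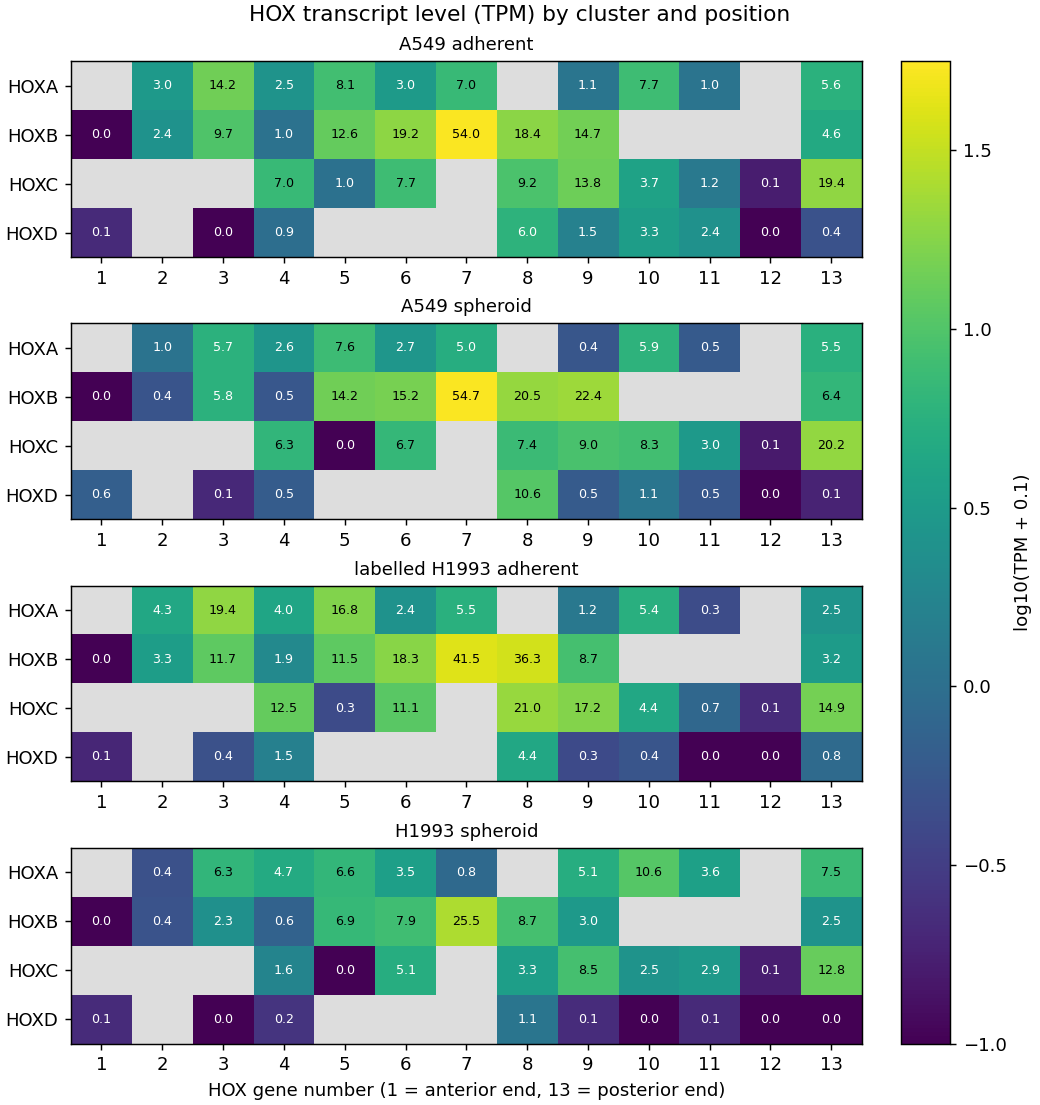
Level of 38 HOX genes in TPM (number in the cell; colour on a log10 scale after adding 0.1 TPM) by cluster (rows) and gene number (columns) in the 4 libraries; grey cells are numbers that a cluster lacks or that are not shown. HOXB7 is the brightest cell in every library, and most of the HOXD row is dark.

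In TPM, HOXB was the most abundant cluster in each library, with summed levels of 137, 140, 136 and 57.8 TPM. HOXA summed to 60.9, 41.6, 72.6 and 50.7 TPM, HOXC to 63.1, 61.0, 82.2 and 36.8 TPM and HOXD to 14.5, 13.9, 7.90 and 1.58 TPM. HOXD was thus the lowest cluster in each library. HOXA held 22.1%, 16.2%, 24.3% and 34.5% of HOX TPM, the highest share being in H1993 spheroids. Across libraries, the summed HOX reads were 3242, 3258, 3903 and 1624 (204, 196, 224 and 106 CPM), and H1993 spheroids were the low library. In bulk RNA, fewer cells expressing a gene and less RNA per cell cannot be told apart.

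HOXB reads numbered 1526, 1662, 1757 and 547, or 96.0, 100.02, 101 and 35.7 CPM. HOXC reads numbered 684, 770, 976 and 382, or 43.0, 46.3, 56.1 and 24.9 CPM. H1993 spheroids were the lowest library for both clusters. HOXD had 160, 182, 96 and 16 reads, or 10.1, 11.0, 5.52 and 1.04 CPM, with both A549 libraries highest and H1993 spheroids lowest. HOXA had 872, 644, 1074 and 679 reads, or 54.8, 38.8, 61.8 and 44.3 CPM, and here the 2 spheroid libraries were the lower ones. The log2 ratio of spheroid to adherent reads for HOXA was -0.50 (95% interval -0.65 to -0.35) in A549 and -0.48 (-0.62 to -0.34) in the H1993 pair as labelled. Without HOXA3 and HOXA4, HOXA5 and HOXA6 inside its span, it was -0.32 (-0.52 to -0.13) in A549. In the H1993 pair it then changed sign, to 0.22 (0.03 to 0.41). For HOXB the ratios were 0.06 (-0.04 to 0.16) and -1.50 (-1.64 to -1.36), for HOXC 0.11 (-0.04 to 0.26) and -1.17 (-1.35 to -1.0), and for HOXD 0.12 (-0.19 to 0.44) and -2.40 (-3.27 to -1.63). Whether the 2 lines differ in these ratios cannot be tested with 1 library a group.

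**Figure D2:**
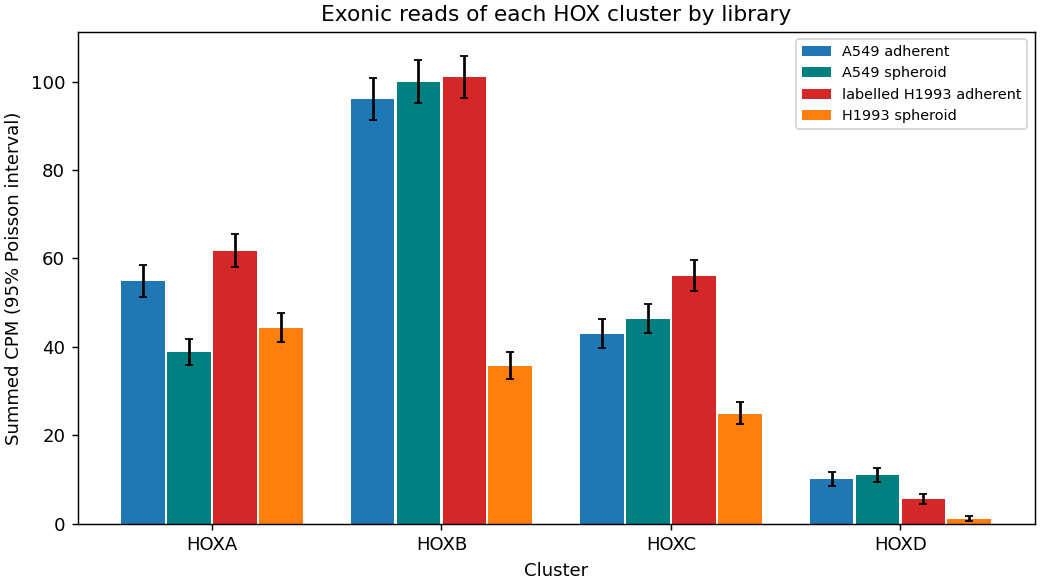
Summed exon reads of each cluster in CPM (bars) with 95% Poisson intervals for counting error, for the 4 libraries. HOXB, HOXC and HOXD bars of H1993 spheroids (35.7, 24.9 and 1.04 CPM) lie below the other 3 libraries, while its HOXA bar (44.3 CPM) lies between the 2 A549 libraries.

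Culture in A549 moved few HOX genes. A gene is called here when it was kept by the filter, its fold was at least 2 (log2 fold with a prior count of 2) and its 95% interval excluded no change. Of the 29 kept HOX genes, 2 were called higher and 4 lower in A549 spheroids than in A549 adherent cells. Over all 15273 kept genes 12.4% were called higher, 10.3% lower and 22.7% either way, so the HOX share (20.7%) was near the background. The HOX median log2 fold was -0.09, and that of all kept genes 0.00.

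The lower genes were mostly anterior: HOXA2, HOXA3 and HOXB2 were called lower, against 0 of 13 central and 1 of 11 posterior genes. HOXA3, a gene of the neck and pharyngeal region, had 281, 127, 426 and 116 reads and a log2 fold of -1.20 (95% interval -1.52 to -0.90). Both libraries labelled adherent lay above both spheroid libraries. HOXB2, a hindbrain gene, had 26, 5, 39 and 4 reads, with a log2 fold of -2.05 (-4.18 to -1.04). HOXA2, also a hindbrain and branchial arch gene, had 34, 13, 54 and 4 reads and a log2 fold of -1.32 (-2.50 to -0.49). HOXB2 and HOXA2 thus followed HOXA3 in being lower in each spheroid library than in each adherent library. HOXB3 had a log2 fold of -0.62 (-0.88 to -0.38), under the 2-fold size.

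Central genes changed little with culture in A549, none being called and their log2 folds running from -0.84 (HOXB4) to 0.92 (HOXD8). HOXB7 had 380, 434, 323 and 166 reads, a log2 fold of 0.13 (-0.07 to 0.33). HOXD8 had 72, 144, 59 and 12 reads and a log2 fold of 0.92 (0.52 to 1.37). A549 spheroids were the high library for HOXD8 and H1993 spheroids the low one. Among posterior genes, HOXC10, a gene of the lumbar region and hindlimb, had 40, 100, 52 and 25 reads, a log2 fold of 1.22 (0.72 to 1.83). HOXC11 had 18, 51, 12 and 40 reads, a log2 fold of 1.35 (0.64 to 2.30), and was higher in both spheroid libraries than in both adherent ones. HOXD10 had 41, 15, 6 and 0 reads, with a log2 fold of -1.40 (-2.47 to -0.63), and A549 adherent cells were its highest library. HOXB9 (174, 300, 114 and 33 reads) and HOXB13, a gene known from the prostate (74, 116, 56 and 37 reads), had log2 folds of 0.72 (0.45 to 1.0) and 0.57 (0.15 to 1.03), not called. Between members with at least 100 reads in the pair the calls fell to 1 higher and 1 lower of 15, with a median log2 fold of 0.13.

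In the H1993 pair as labelled, 21 HOX genes were called. Of the 29 kept, 4 were called higher and 17 lower in H1993 spheroids than in the library labelled H1993 adherent. Over all kept genes 17.0% were called higher, 18.0% lower and 35.0% either way, while the shares among HOX genes were 13.8% and 58.6%. The HOX median log2 fold was -1.27 (-1.18 with HOXD10, at 0 reads, set to its bound), and the median of all kept genes was 0.00. Since the library labelled H1993 adherent stood near A549 adherent cells, line and culture cannot be told apart in this pair.

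**Figure D3:**
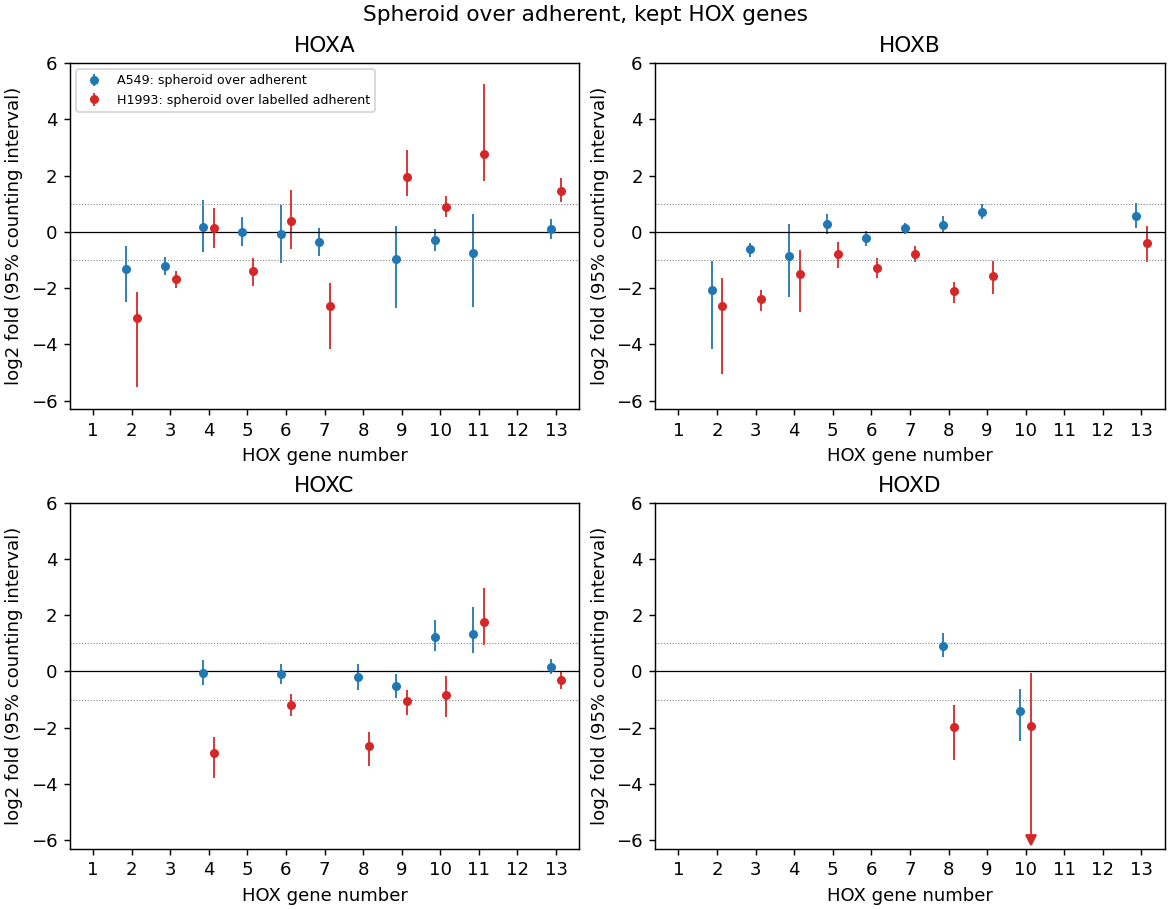
Log2 fold of spheroid over adherent reads (points, 95% counting intervals) for 28 of the kept HOX genes by cluster and gene number, in A549 (blue) and in the H1993 pair as labelled (red); dotted lines mark 2-fold and the arrow an interval with no lower end. Most red points of HOXB, HOXC and HOXD lie below 0, and in HOXA they lie on both sides of 0 up to HOXA7 and above 0 from HOXA9 to HOXA13.

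The anterior genes HOXA2, HOXA3, HOXB2 and HOXB3 were all called lower. HOXB3 had 333, 225, 446 and 73 reads and a log2 fold of -2.40 (-2.81 to -2.07). For HOXB3 the 3 other libraries all lay above H1993 spheroids, with the library labelled H1993 adherent highest. The log2 folds of HOXA3, HOXA2 and HOXB2, whose reads are given above, were -1.68 (-2.0 to -1.40), -3.07 (-5.50 to -2.13) and -2.63 (-5.05 to -1.63). HOXA2, HOXA3, HOXB2 and HOXD10 were called lower, and HOXC11 higher, in both the A549 and the H1993 pair. The share of all kept genes called the same way in both pairs is not given here. Whether this overlap exceeds that background is therefore not known. The call of HOXD10 in the H1993 pair rests on 0 against 6 reads and the prior count, its bound being 1.76-fold.

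Of the 13 kept central genes, 9 were called lower and 0 higher, with a median log2 fold of -1.39. HOXC4 had 88, 89, 174 and 19 reads, a log2 fold of -2.90 (-3.78 to -2.33). HOXC8 had 80, 73, 202 and 27 reads, a log2 fold of -2.64 (-3.36 to -2.14). HOXB8 had 174, 218, 380 and 76 reads, a log2 fold of -2.11 (-2.52 to -1.78). These 3 genes, which set regional identity in the neck and trunk, were highest in the library labelled H1993 adherent and lowest in H1993 spheroids. HOXA7 had 78, 63, 67 and 8 reads, a log2 fold of -2.63 (-4.15 to -1.82), and its other 3 libraries were close together. HOXA5, a gene needed for lung development in the mouse, had 64, 67, 146 and 48 reads and a log2 fold of -1.39 (-1.93 to -0.94). HOXB6 had 230, 205, 243 and 88 reads, a log2 fold of -1.27 (-1.65 to -0.93), and HOXC6 had 126, 124, 200 and 77 reads, a log2 fold of -1.18 (-1.59 to -0.81). HOXB6 and HOXC6 again had H1993 spheroids as the lowest library. HOXB4 (17, 9, 36 and 10 reads) and the HOXD8 reads above gave log2 folds of -1.50 (-2.84 to -0.63) and -1.96 (-3.15 to -1.21). HOXB5 (118, 150, 120 and 60 reads; -0.80, -1.29 to -0.36) and HOXB7 (-0.77, -1.06 to -0.51) were lower by less than 2-fold. HOXA4 (20, 24, 36 and 35 reads) and HOXA6 (18, 18, 16 and 19 reads) had intervals that included no change.

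The posterior genes were divided. Of 11 kept, 4 were called higher and 3 lower, and the median log2 fold was -0.29. HOXA9, a gene of the trunk and limb known for its role in blood stem cells, had 15, 7, 18 and 66 reads, a log2 fold of 1.93 (1.29 to 2.90). Its unique reads, 6, 6, 15 and 43, were again highest in H1993 spheroids. HOXA11, needed for the uterus and forearm, had 11, 6, 4 and 35 reads and a log2 fold of 2.77 (1.83 to 5.26). HOXA13, a gene of the hand, hindgut and urogenital tract, had 131, 146, 66 and 162 reads and a log2 fold of 1.45 (1.05 to 1.91). For HOXA9 and HOXA11 H1993 spheroids were the 1 high library, whereas for HOXA13 the library labelled H1993 adherent was the 1 low library. HOXA10 (132, 113, 102 and 167 reads) had a log2 fold of 0.88 (0.53 to 1.26), below the 2-fold size. HOXC11 had a log2 fold of 1.75 (0.96 to 2.98). The lower posterior genes were HOXB9 (-1.55, -2.21 to -1.04), HOXC9 with 107, 78, 147 and 61 reads (-1.07, -1.54 to -0.65), and HOXD10, which with 0 reads in H1993 spheroids was at least 1.76-fold lower, a bound under the 2-fold size of a call. Over unique reads alone 11 of 19 kept HOX genes were called lower in this pair, and among the 15 kept members without the span of a same-strand gene over most of their exons 9 were. HOXC13 (216, 254, 184 and 132 reads), HOXC10 and HOXB13 had log2 folds of -0.29 (-0.63 to 0.03), -0.83 (-1.63 to -0.16) and -0.40 (-1.06 to 0.21), and were not called.

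Within HOXA the called genes were split by their place in the cluster. HOXA2, HOXA3, HOXA5 and HOXA7 were called lower in H1993 spheroids than in the library labelled H1993 adherent, and HOXA9, HOXA11 and HOXA13 higher. HOXA4 and HOXA6, which lie between the lower genes, went the other way without being called, with log2 folds of 0.13 (95% interval -0.57 to 0.85) and 0.38 (-0.61 to 1.48). Together the anterior and central HOXA genes had 583, 372, 884 and 249 reads and the posterior ones 289, 272, 190 and 430 reads. H1993 spheroids were thus the lowest library for the former and the highest for the latter. The log2 ratio in the H1993 pair was -1.65 (95% interval -1.86 to -1.44) for anterior and central HOXA and 1.36 (1.11 to 1.61) for posterior HOXA. In A549 the same ratios were -0.71 (-0.90 to -0.52) and -0.15 (-0.40 to 0.09). Sums over these parts of HOXA were not planned, and they hold the same reads as the calls above. They restate the split in the H1993 pair and are no separate support for it. In HOXB 0 of 9 kept genes were called higher, and in HOXC 1 of 7 was, HOXC11.

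**Figure D4:**
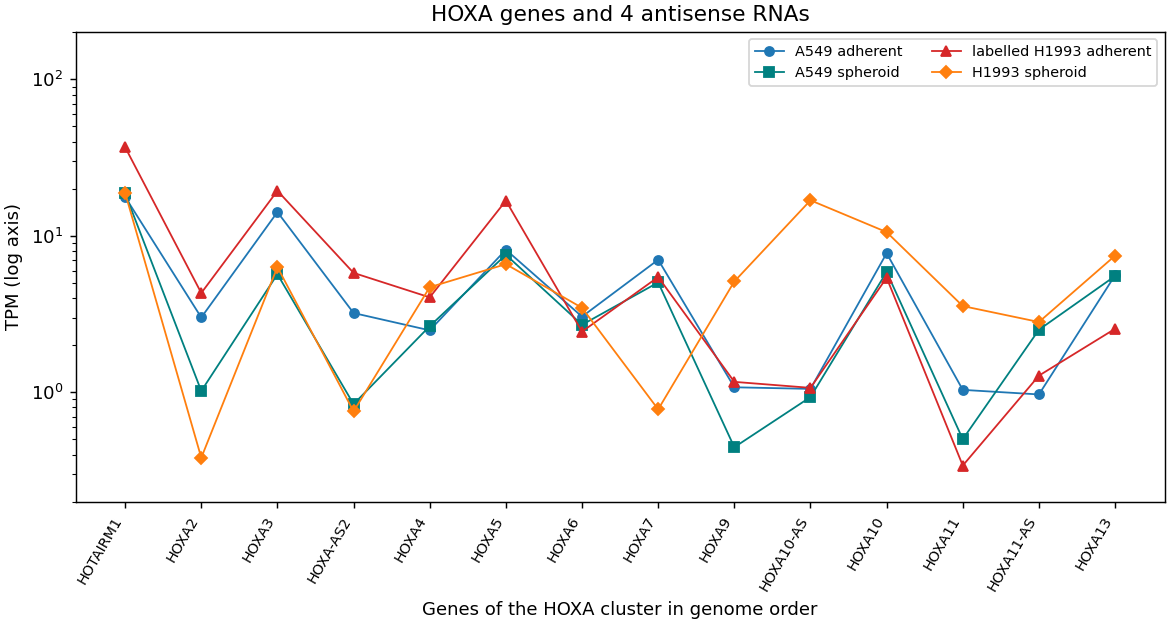
Level in TPM (log axis) of 10 HOXA genes and 4 antisense RNAs of the cluster in genome order in the 4 libraries; lines join the points of a library to guide the eye. H1993 spheroids (orange) are lowest at HOXA2 and HOXA7 and highest from HOXA9 to HOXA13.

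Between the 2 spheroid libraries, which differ in line, 16 HOX genes were called. Of the 29 kept, 2 were called higher and 14 lower in H1993 spheroids than in A549 spheroids, against 18.0%, 19.2% and 37.2% (higher, lower, either way) over all kept genes. The median log2 fold of the HOX genes was -1.09. HOXA9 and HOXA11 were the higher genes, with log2 folds of 3.02 (95% interval 2.23 to 4.72) and 2.31 (1.39 to 4.20). HOXD8 and HOXB9 were lower by the greatest log2 folds among members with reads in both libraries, -3.28 (-4.46 to -2.62) and -3.00 (-3.63 to -2.55). HOXD10 (0 against 15 reads) was at least 4.62-fold lower. In HOXB, 7 of 9 kept genes were called lower, HOXB7 among them with -1.26 (-1.54 to -1.01). HOXA3, with 116 and 127 reads, had a log2 fold of -0.02 (-0.39 to 0.36), and HOXA13, with 162 and 146 reads, had 0.26 (-0.07 to 0.60). This comparison shares the H1993 spheroid library with the H1993 pair and the A549 spheroid library with the A549 pair.

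The HOX genes were also used to check the library labelled H1993 adherent. In 25 of the 29 kept HOX genes its log2 CPM lay nearer A549 adherent cells than H1993 spheroids, and over all kept genes this was so for 11103 of 15273 (72.7%). The 4 others were HOXA4, HOXB13, HOXC13 and HOXD10. Of the 29 genes, 17 were called between H1993 spheroids and A549 adherent cells (3 higher and 14 lower in H1993 spheroids; 36.2% called either way over all kept genes). In 16 of these 17 the library labelled H1993 adherent lay nearer A549 adherent cells, in 14 it was within 2-fold of A549 adherent cells, and in 1 (HOXB7) within 2-fold of H1993 spheroids. HOXD10 was the exception, since its 6 reads there stood between 41 in A549 adherent cells and 0 in H1993 spheroids. The matching shares over all genes called between these libraries are not given here. Nothing particular to HOX genes can therefore be read from the 16 and 14 of 17. A549 adherent cells and H1993 spheroids differ in culture as well as line, so nearness to either cannot tell line from culture. Some of the 17 were alike in A549 and H1993 spheroids, such as HOXA3 (log2 CPM 2.96 and 2.94) and HOXB2 (-1.24 and -1.38). With A549 spheroids in place of A549 adherent cells, 23 of the 29 genes lay nearer A549 than H1993 spheroids. The share over all kept genes is not given for that choice.

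**Figure D5:**
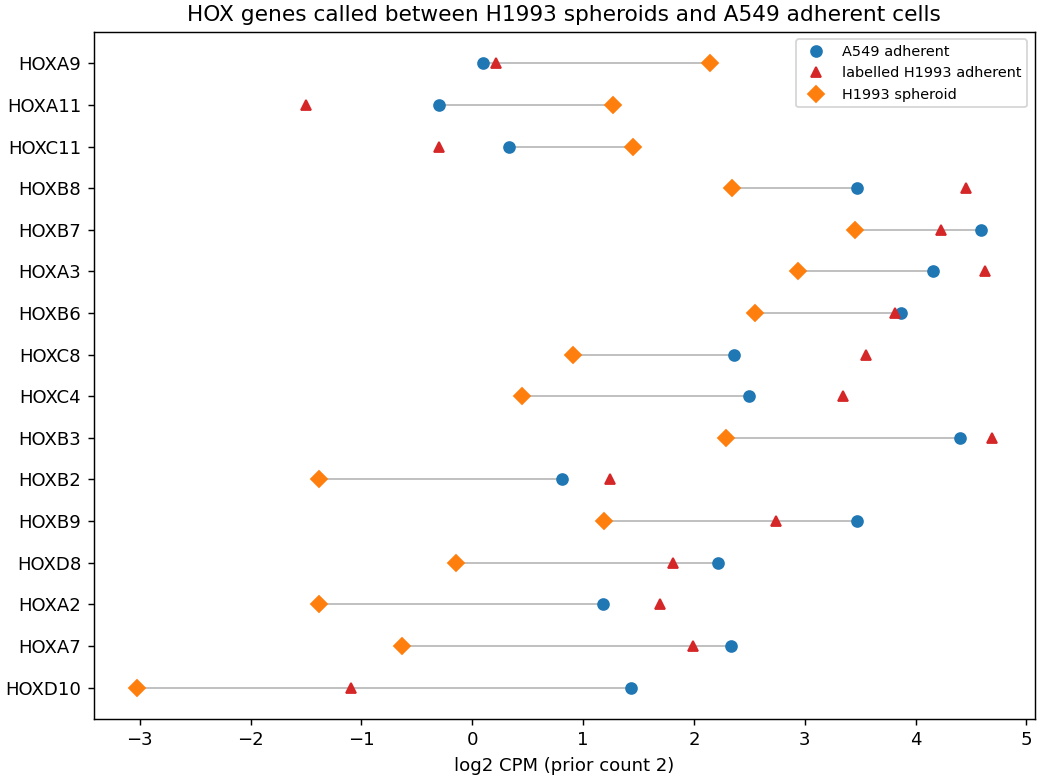
Log2 CPM (prior count 2) of 16 of the 17 HOX genes called between A549 adherent cells (blue) and H1993 spheroids (orange), joined by a line, with the library labelled H1993 adherent (red). Red points lie nearer blue than orange for 15 of the 16 genes shown, the exception being HOXD10, which had 0 reads in H1993 spheroids. The blue and orange libraries differ in culture as well as line.

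A match to A549 adherent cells was not complete. Set against A549 adherent cells, the library labelled H1993 adherent showed HOXA5 and HOXC8 called higher, with log2 folds of 1.04 (95% interval 0.63 to 1.51) and 1.19 (0.83 to 1.60), and HOXA13 and HOXD10 lower, with -1.09 (-1.57 to -0.68) and -2.53 (-4.43 to -1.66). These 4 of 29 genes compare with 12.4% of all kept genes (6.93% higher and 5.49% lower), and the HOX median log2 fold was 0.12. HOXD11 had 23 reads in A549 adherent cells and 0 in the library labelled H1993 adherent, at least 8.39-fold lower, but did not pass the filter. The median absolute log2 difference of the 29 HOX genes from A549 adherent cells was 0.51 for both the library labelled H1993 adherent and A549 spheroids, and 1.13 for H1993 spheroids, against 0.30, 0.48 and 0.72 over all kept genes. The library labelled H1993 adherent differed from H1993 spheroids by a median of 1.55 over the HOX genes, the greatest of the 6 pairs of libraries. No HOX gene had at least 1 CPM in both A549 libraries and under 0.2 CPM in H1993 spheroids, or the reverse. These patterns were found in 153 and 365 of all 43622 genes. Their absence among 39 HOX genes is therefore near the background and says nothing particular to HOX genes.

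A model with a term for line and a term for culture over all 4 libraries had 1 residual degree of freedom. By edgeR's quasi-likelihood test with Benjamini-Hochberg adjustment 0 of the 29 HOX genes and 0% of the 15273 kept genes passed an adjusted p of 0.05 for either term. At an unadjusted p under 0.05 the culture term held 1251 genes, among them HOXA3 and HOXB2, and the line term 779, among them HOXD10. The lowest adjusted edgeR p of a HOX gene was 0.535 for culture (HOXB2, log2 fold -2.74) and 0.774 for line (HOXD10). DESeq2 called 591 genes (3.87%) for culture and 372 (2.44%) for line, with 0 HOX genes in either. These fits take the label of the library labelled H1993 adherent as given.

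Noncoding RNAs of the clusters were counted in the same way, from the 56 other genes of any biotype that lie between the outermost HOX genes, of which 12 were kept. In the A549 pair 1 was called higher and 1 lower, and in the H1993 pair 1 higher and 8 lower. Over all kept genes 12.4% were called higher and 10.3% lower in the A549 pair, and 17.0% higher and 18.0% lower in the H1993 pair. HOXA-AS2, antisense in the anterior HOXA region, had 78, 23, 156 and 17 reads, lower in both pairs like HOXA3 beside it. HOTAIRM1, a noncoding RNA of the anterior end of HOXA, had 122, 145, 281 and 120 reads, and the library labelled H1993 adherent was the high one. HOXA10-AS, which lies opposite HOXA9 and HOXA10, had 8, 8, 9 and 119 reads and was therefore high in H1993 spheroids alone. It did not pass the filter, and its log2 fold in the H1993 pair was 3.62 (2.93 to 5.07). AC103702.2, within HOXB, had 87, 101, 80 and 8 reads and was, like most HOXB genes, low in H1993 spheroids. HOTAIR, which lies opposite HOXC11, was the 1 called higher in the H1993 pair, with 15, 19, 6 and 18 reads.

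Of the 9 PBX, MEIS and PKNOX genes, which encode the partner proteins of HOX factors, 8 were kept, and 4 were called lower and 0 higher in the H1993 pair (median log2 fold -0.68), with 2 lower and 0 higher in the A549 pair (-0.29). The shares of all kept genes called lower were 18.0% and 10.3% in these pairs. MEIS2 had 234, 75, 620 and 61 reads and was called lower in both pairs, with -3.13 (-3.57 to -2.78) in H1993 and -1.68 (-2.10 to -1.32) in A549. PBX3, with 228, 78, 171 and 73 reads, was also called lower in both pairs.

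Of the machinery that sets HOX chromatin, all 26 Polycomb genes were kept, with 1 called higher and 2 lower in the A549 pair and 1 higher and 4 lower in the H1993 pair. Called either way were 22.7% of all kept genes in the A549 pair and 35.0% in the H1993 pair, so the Polycomb counts (3 and 5 of 26) lay below the background in both. EZH2, which methylates histone H3 to silence genes, had 774, 123, 748 and 531 reads and was low in A549 spheroids alone. CBX7, a reader of that mark, had 84, 159, 112 and 331 reads, highest in H1993 spheroids. All 18 Trithorax and demethylase genes were kept, with 0 higher and 3 lower in the A549 pair and 1 higher and 2 lower in the H1993 pair. These 3 of 18 in each pair were likewise below 22.7% and 35.0%. WDR5, a subunit of the activating methyltransferases, had 1151, 598, 767 and 1626 reads, lower in the A549 pair and higher in the H1993 pair. PSIP1, a chromatin tether of the KMT2A complex, had 2312, 1057, 2533 and 833 reads, lower in both spheroid libraries than in both adherent ones.

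Of 17 retinoid genes 14 were kept, and 1 was called higher and 6 lower in the A549 pair and 3 higher and 5 lower in the H1993 pair, against 22.7% and 35.0% of all kept genes called either way. DHRS3, a retinal reductase that retinoic acid is known to induce, had 774, 57, 1363 and 3 reads. RARB, a retinoic acid receptor that is itself a known retinoic acid target, had 294, 108, 265 and 4 reads. Both were lower in the spheroid libraries than in the adherent ones, as HOXA3, HOXA2 and HOXB2 were. ALDH1A1, which makes retinoic acid from retinal, had 168936, 118358, 131387 and 4059 reads, and CRABP2, which carries retinoic acid in the cell, had 103, 62, 220 and 3003 reads. H1993 spheroids were thus the low library for ALDH1A1 and the high one for CRABP2. The part of any of these genes in the HOX levels was not tested.

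Of the 8 CDX, PDX1, GSX and EVX genes, homeobox relatives of the HOX genes, CDX2 alone passed the filter. CDX2, an intestinal and posterior patterning factor, had 10, 7, 14 and 110 reads, and H1993 spheroids were its 1 high library, with a log2 fold of 2.97 (2.35 to 4.07) in the H1993 pair. The 5 nearest protein-coding genes on each side of each cluster gave 40 neighbours, of which 36 were kept. Among these neighbours 4 were called higher and 4 lower in the A549 pair and 1 higher and 5 lower in the H1993 pair, with a median log2 fold of -0.01 in the latter. Of all kept genes 22.7% and 35.0% were called, so the neighbours' 8 of 36 was near the background in the A549 pair and their 6 of 36 below it in the H1993 pair. NFE2L3, a transcription factor gene beyond the anterior end of HOXA, was the 1 higher in the H1993 pair, with 256, 212, 539 and 1224 reads. TTLL6, a tubulin glutamylase beside HOXB13, was among those lower in the H1993 pair, with 52, 117, 36 and 3 reads. CHN1, the farthest of the 5 neighbours beyond the HOXD13 end of HOXD, had 293, 66, 172 and 21 reads and was lower in both pairs.

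The 10 HOX genes that did not pass the filter were called in no comparison, whatever their reads. HOXB1 and HOXD12 had 0 reads in all 4 libraries, which allows up to 0.196 CPM in the least deep of them. HOXC12 had at most 2 reads and HOXD1 at most 6. HOXC5 ranged from 0 to 8 reads, HOXD3 from 0 to 7 and HOXD13 from 0 to 9. HOXD4 ranged from 1 to 11 reads, HOXD9 from 1 to 13 and HOXD11 from 0 to 23. HOXD9 and HOXD11, like HOXD10, had their highest count in A549 adherent cells. In the H1993 pair HOXD13 (0 against 9 reads) was at least 2.65-fold lower and HOXD3 (0 against 7) at least 2.06-fold lower, and in the A549 pair HOXC5 (0 against 8) was at least 2.79-fold lower.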

How the data were processed

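Each of the 4 samples was 1 library, and the labels' titles gave its line and culture. The authors deposited 1 table per library with whole-number counts of reads per gene and TPM (scaled by exon length), per the file headers. The genome build was hg38, per the submitters' processing notes. Which aligner, counting program, strand setting and annotation release were used is not given in the sources used here.

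Differences were computed on total exon counts, and TPM served to compare genes within a library. edgeR 4.0.16 in R 4.3.3 kept 15273 genes (filterByExpr, terms for line and culture) and gave TMM factors. A prior count of 2 was added for log2 folds, and their 95% intervals were exact Clopper-Pearson intervals of the 2 counts. A gene with 0 reads was set against a floor of 3 reads. A quasi-likelihood fit, tested on simulated data, and DESeq2 1.42.0 used line and culture as terms over all genes. Alternatives were library size or DESeq2 factors as scaling, no filter, a prior count of 0.5, unique reads, members with at least 100 reads and, chosen after seeing the data, members not under another gene of the same strand. The members, gene lists and tests were chosen with earlier results of these data known. Sums over part of a cluster were added to the planned sums of whole clusters. HOX genes with at least 100 reads in a library are named with every value, those with at least 10 with their range, or every value where called, and of each other list up to 4 genes with the largest fold, plus others picked after their values were seen (EPCAM and NKX2-1 for the label, HOTAIR). Results on 2 genes are not reported here; counts, medians and sums over lists include them.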

Additional observations from a re-analysis of the deposited data

How the results depend on the processing

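The culture term fitted with a term for line, given in the report, compares cultures within lines, with 1 residual degree of freedom. No paired analysis was possible by replicate number because each group has 1 library, and for the same reason no library could be left out. Of the values computed under an alternative, 96 stayed close to the main value (counts within 1.5 times it, cluster sums within their counting interval, medians of the same sign within the median half-width of the members' intervals), 30 moved further and 2 reversed. Medians close by that rule reached -0.36 in the A549 pair without nested members and 0.31 between the libraries labelled adherent over members that reach 100 reads. Values of both other kinds follow, and why they moved was not tested beyond the fewer genes that each alternative holds. With members of at least 100 reads, HOX calls were 1 higher and 1 lower in the A549 pair (median log2 fold 0.13, reversed), 1 higher and 11 lower in the H1993 pair as labelled, 1 lower between the libraries labelled adherent, and 0 higher and 9 lower between the spheroids. Without members nested under a same-strand gene, 1 was higher in the A549 pair. In the H1993 pair 9 were then lower (median -1.93), between the libraries labelled adherent 0 were higher (median -0.36, reversed), and between the spheroids 1 was higher and 8 lower. Over unique reads 11 were lower in the H1993 pair, 0 higher between the libraries labelled adherent and 9 lower between the spheroids. Without a filter 4 were lower between the libraries labelled adherent. Summed unique reads, in the library order of the report, were 42.7, 27.5, 48.6 and 27.8 CPM for HOXA, 56.6, 51.7, 55.9 and 19.9 for HOXB, and 24.1, 28.3, 25.4 and 14.3 for HOXC. Scaling by library size put HOXB in A549 spheroids at 94.0 CPM, and moved the median of all kept genes in the A549 pair to -0.11 and that of the HOX genes to -0.20. Sums of TPM are in another unit and stand in the report. The label check gave 23 to 26 of 29 genes nearer A549. With 19 members at 100 reads or more in some library, depth limits what the other members can show.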
